A study of Mus musculus with 6 samples.

Results

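The Vmn2r genes encode the type 2 vomeronasal receptors of the mouse, and 255 of the 39096 regions in a list made from chromatin immunoprecipitation of mouse testis (0.652%) had a Vmn2r gene as their nearest gene. These 255 regions were taken by that rule alone: the gene name given in the list starts with Vmn2r. They carried 76 names, of which 72 were gene names and 4 were pseudogene names (Vmn2r-ps11, Vmn2r-ps60, Vmn2r-ps129 and Vmn2r-ps159). They lay on 9 chromosomes (3, 4, 5, 6, 7, 10, 14, 17 and X), with 241 regions on autosomes, 14 on X and 0 on Y. Together they covered 223 kb.

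The protein immunoprecipitated was PHF13, named SPOC1 in the library labels, a chromatin protein whose PHD finger reads methylated lysine on histone H3. Testis of C57Bl/6 mice aged 5 weeks gave 3 SPOC1 immunoprecipitation libraries and 3 input libraries. The genotype labels put 1 immunoprecipitation library as wild type and 2 as Phf13-/-, and 2 input libraries as wild type and 1 as Phf13-/-. Both labels occur within the animal coded D821, so genotype formed no group here. The single list has 0 columns of values per library, so replicate error could not be computed, testis markers could not be checked, and the regions are not called PHF13 binding sites.

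Type 2 vomeronasal receptors are class C G protein-coupled receptors with a large extracellular ligand-binding domain. They are expressed in basal sensory neurons of the vomeronasal organ, where they detect peptide and protein pheromones, and many are co-expressed with the nonclassical H2-M class I molecules. A typical Vmn2r gene is split into several exons, the last of which encodes the transmembrane part, whereas the related Vmn1r receptors and the olfactory receptors (Olfr) have their coding sequence in 1 exon. The genes sit in tandem arrays of near-identical copies and pseudogenes. L1 elements, a family of LINE retrotransposons whose young mouse subfamilies are named L1Md_T, L1Md_A, L1Md_Gf and L1Md_F, and the LTR retrotransposon IAP are common in such arrays.

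How alike the copies are can be read from the sequence just before their starts. The 100 bases upstream of the annotated start of 6 Vmn2r genes are given below as RefSeq has them (GRCm38.p6), because 4 of the first 5 genes had a region nearby at positions that turn out to recur. All are written 5′ to 3′ on the gene's own strand, and capitals mark bases that differ from Vmn2r34 at the same position. For Vmn2r97, a gene of a chromosome 17 neighbourhood, 78 of the 100 positions differed without gaps and none is capitalised.
Vmn2r34 (chr7:7689399-7689498, minus strand): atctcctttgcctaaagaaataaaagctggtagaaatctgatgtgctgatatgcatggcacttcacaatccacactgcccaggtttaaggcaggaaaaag
Vmn2r45 (chr7:8488960-8489059, minus strand): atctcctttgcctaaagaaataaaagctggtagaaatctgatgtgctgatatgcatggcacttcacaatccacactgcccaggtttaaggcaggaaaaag
Vmn2r35 (chr7:7819868-7819967, minus strand): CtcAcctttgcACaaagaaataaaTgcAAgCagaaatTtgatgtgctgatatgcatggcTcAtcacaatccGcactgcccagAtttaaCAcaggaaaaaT
Vmn2r39 (chr7:9030683-9030782, minus strand): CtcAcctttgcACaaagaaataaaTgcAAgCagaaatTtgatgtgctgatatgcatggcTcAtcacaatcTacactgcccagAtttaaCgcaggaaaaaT
Vmn2r38 (chr7:9097766-9097865, minus strand): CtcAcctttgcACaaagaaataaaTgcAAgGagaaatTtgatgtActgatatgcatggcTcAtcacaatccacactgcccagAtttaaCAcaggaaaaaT
Vmn2r97 (chr17:18914222-18914321, plus strand): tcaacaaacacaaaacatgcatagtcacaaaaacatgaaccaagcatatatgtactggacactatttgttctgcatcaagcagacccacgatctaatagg

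Vmn2r45 was identical to Vmn2r34 over these bases, although their starts lie far apart on chromosome 7. Vmn2r35 differed from Vmn2r34 at 16 positions, Vmn2r39 at 15 and Vmn2r38 at 16. Over the 250 bases before the start, the 22 promoters available from the chromosome 7 neighbourhood that holds these genes gave 231 pairs. Their median ungapped identity was 83.2%, with quartiles of 45.6% and 91.6%, and 78 pairs (33.8%) were at least 90% identical. Without gaps, copies whose annotated starts are shifted against each other read as unlike. The other 6555 pairs of Vmn2r promoters had a median identity of 48.4%, and 44 of them (0.671%) reached 90%. These include pairs between different neighbourhoods and chromosomes. Identity within each of the other neighbourhoods was not computed, so whether this array is more alike than they are was not tested. None of the 118 Vmn2r promoter windows in the table, each running from 250 bases before to 50 after the start, was overlapped by a region. Of all 32851 windows in the table, 82 (0.250%) were.

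Vmn2r genes were named in the list more often than genes in general. RefSeq holds 272 Vmn2r genes, 124 of them protein-coding and 148 pseudogenes. Of the 124 coding genes, 74 (59.7%, 95% Wilson interval 50.9% to 67.9%) were the nearest gene of at least 1 region, against 23.0% of all 21900 protein-coding genes. One of the 74, Vmn2r126, is listed under the name Gm9268 and so is not among the 255 regions. A count of 5 or more regions was reached by 17 of the 124 genes (13.7%, 8.74% to 20.9%), against 5.16% of all coding genes. These counts are per name: 15 genes reached 5 when Vmn2r46 and Vmn2r47, each listed at several starts, were counted only at their RefSeq start. Leaving out Vmn2r126, which lies on chromosome 7, 31 of the 52 coding Vmn2r genes of that chromosome were named, and on chromosome 17, 17 of 32. Intervals here and below cover counting error only. They are too narrow where neighbouring regions come from 1 element or from duplicated copies, and since regions are not replicates, differences between sets of regions were not tested.

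The regions per name were uneven. The median was 2, with 25 names having 1 region and 18 having 5 or more. Vmn2r47 led with 24 regions, followed by Vmn2r46 and Vmn2r121 with 14 each and Vmn2r45 with 8. Vmn2r-ps11, Vmn2r118 and Vmn2r58 had 7 each, and Vmn2r35, Vmn2r36 and Vmn2r37 had 6 each. The first 3 names held 52 regions. This order rests on low scores: in the upper 50% of the list by score, Vmn2r47, Vmn2r46 and Vmn2r121 kept 3 regions each and Vmn2r45 kept 0, while Vmn2r-ps11 kept 5 and Vmn2r118 and Vmn2r58 kept 4 each. The 255 regions used 80 transcription start sites (TSSs), since the list places 1 transcript of Vmn2r47 at 4 TSSs and 1 of Vmn2r46 at 2.

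Of the 24 Vmn2r47 regions, only 4 belonged to the TSS at which RefSeq places Vmn2r47. Another 11 were measured from the position of the pseudogene Vmn2r-ps44, 6 from that of the pseudogene Gm4073 and 3 from that of the coding gene Gm10302. For Vmn2r46, 4 of the 14 regions belonged to its own TSS and 10 to a start where RefSeq has no gene. A count per name in this array is therefore a count over several copies, and reads from near-identical copies could be placed at any of them. No source used here states how reads that match several places were treated.

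The Vmn2r regions fell into 17 neighbourhoods when regions under 1 Mb apart were joined. One of them, chr7:7275497-10192465 (2.92 Mb, from Vmn2r29 to Vmn2r52), held 85 of the 255 regions (33.3%). These 85 regions belonged to 17 names and 21 TSSs, all on the minus strand. The next neighbourhoods held 26 regions each, around Vmn2r69 on chromosome 7 and Vmn2r97 on chromosome 17, and 18 regions around Vmn2r112 on chromosome 17. The smallest held a single region, near Vmn2r89 on chromosome 14.

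The largest neighbourhood differed from the rest in what lay at the region centres. Of its 85 regions, 47 (55.3%, 95% Wilson interval 44.7% to 65.4%) had no repeat named at the centre. Among the 170 regions of the other 16 neighbourhoods 0 lacked a repeat, which allows a share of up to 2.21% by the Wilson interval. A young L1 was at the centre of 18 of the 85 (21.2%, 13.8% to 31.0%), against 120 of the 170 (70.6%, 63.3% to 76.9%). LTR elements were at 11 of the 85 (12.9%) and 41 of the 170 (24.1%). The intron share was 28.2% (19.8% to 38.6%) in the largest neighbourhood and 15.3% (10.7% to 21.5%) elsewhere.

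**Figure D1:**
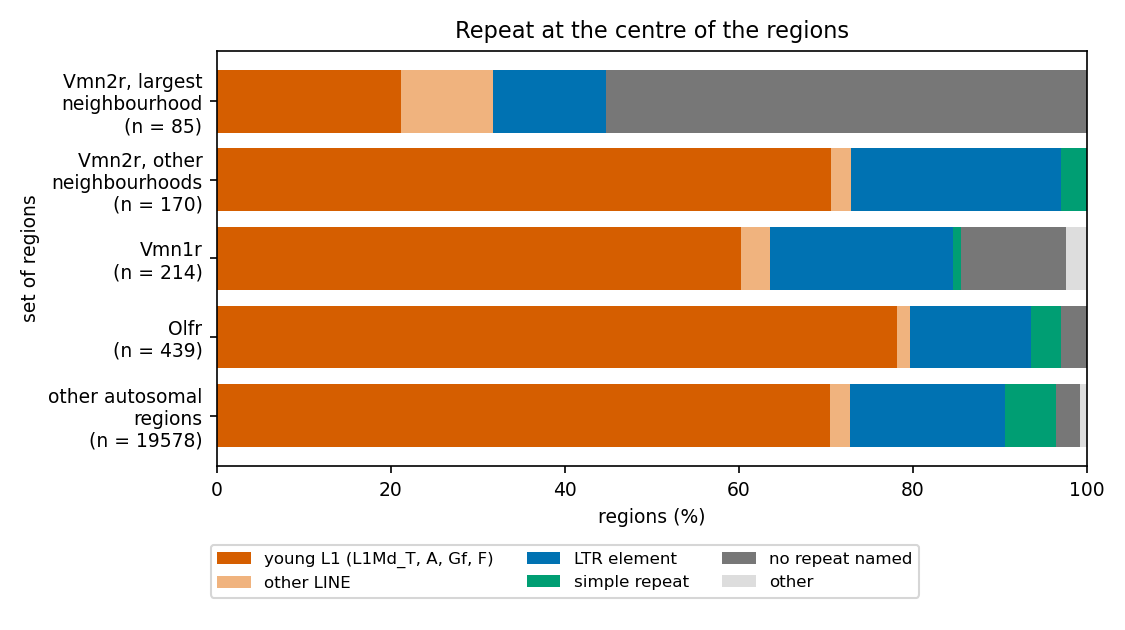
Stacked bars give the percentage of regions (horizontal axis) by the repeat at the region centre, for the 2 Vmn2r sets and 3 comparison sets, with the number of regions in brackets. The no-repeat part takes 55.3% of the largest Vmn2r neighbourhood and 0% of the other Vmn2r neighbourhoods.

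Set beside the other receptor families, the no-repeat share of all Vmn2r regions was 18.4% (14.2% to 23.6%). It was 12.1% (8.43% to 17.2%) of 214 Vmn1r regions, 2.96% (1.74% to 5.00%) of 439 Olfr regions and 2.79% of the 19578 autosomal regions near other genes. In the whole list, 8285 of the 39096 regions had no repeat named, and 593 of these were on autosomes. The young L1 share was 54.1% for Vmn2r, 60.3% for Vmn1r, 78.1% for Olfr and 70.5% for the other autosomal regions. Without the largest neighbourhood, the Vmn2r value of 70.6% lay inside the range of those sets. The intron share was 19.6% (15.2% to 24.9%) for Vmn2r, 1.40% (0.478% to 4.04%) for Vmn1r and 2.96% (1.74% to 5.00%) for Olfr, and 22.1% for the other autosomal regions.

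The regions with no repeat had low scores for their length. The score is the authors' value per region in an unstated unit, and it was divided by length. The 47 no-repeat regions ran from 9.53 to 15.7 per kb with a median of 11.9. The 208 regions with a repeat named had a wider range, and 26 of them lay at or under 15.7 per kb. Of the 138 young L1 regions, 5 did. The 546 other autosomal regions with no repeat had a median of 13.7 per kb, so a low score per kb was shared by such regions outside the Vmn2r arrays.

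Young L1 regions had similar median scores per kb inside and outside the largest neighbourhood, with lower values on X. Their median was 28.0 per kb (95% order-statistic interval 25.6 to 31.8) for the 18 in the largest neighbourhood and 28.1 (27.1 to 30.3) for the 120 elsewhere, which include 9 on X with a median of 18.8 (range 10.62 to 29.1). It was 29.1 per kb for the other autosomal young L1 regions. The lower median of the whole largest neighbourhood, 13.2 per kb against 27.1 in the others, went with its share of no-repeat regions: its 38 regions with a repeat named had a median of 26.2.

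**Figure D2:**
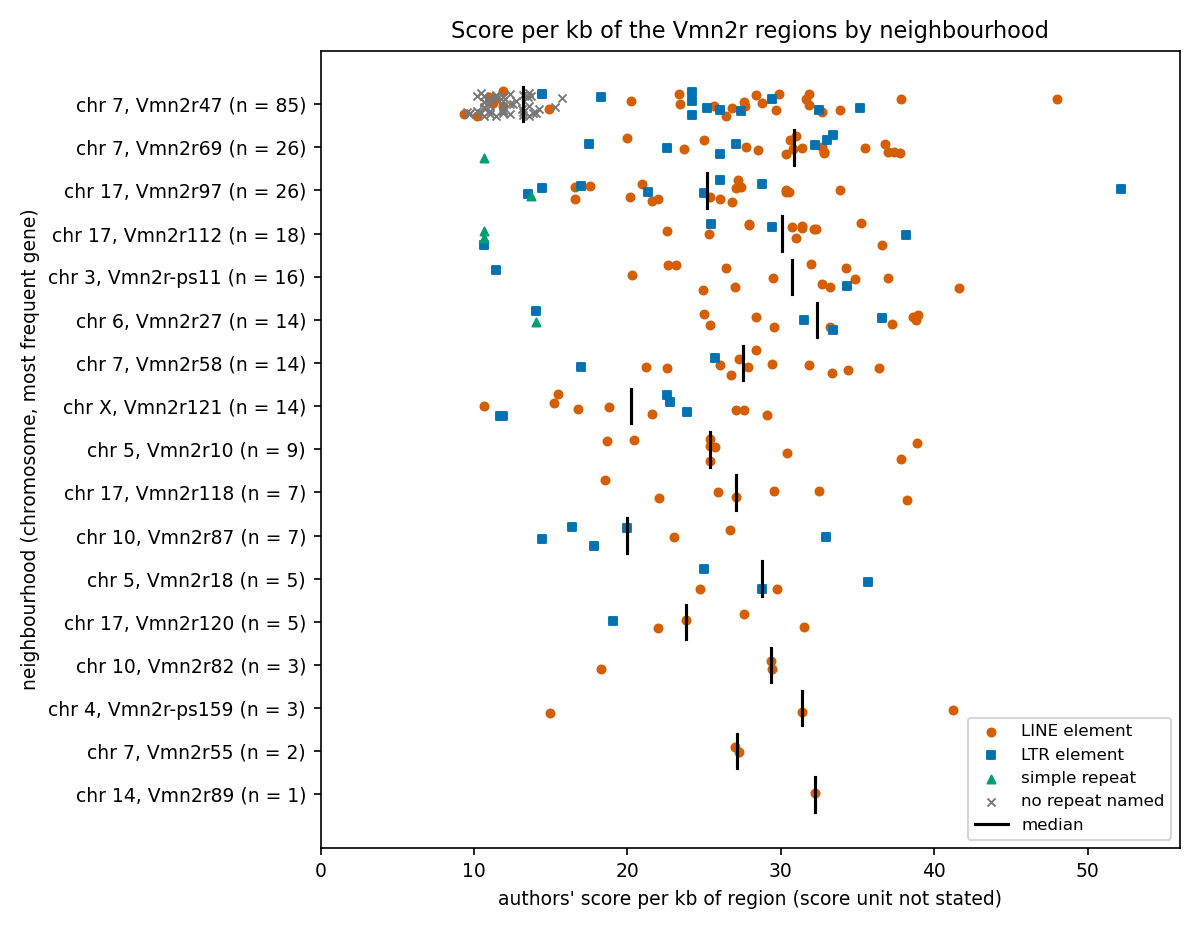
Each point is 1 Vmn2r region at its score per kb (horizontal axis, unit not stated), in rows by neighbourhood, each named by chromosome and its most frequent gene; points are spread vertically within a row for visibility, colour and shape give the repeat class and the black bar the row's median. Grey crosses, the regions with no repeat, occur only in the top row and lie between 9.53 and 15.7 per kb.

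Scores were whole multiples of 0.212, as checked on scores under 10, where 100% lay within 0.006 of a multiple. If 1 multiple is 1 tag, low scores rest on few tags: the median no-repeat score of 5.95 came to 28 multiples (95% Poisson interval 18.6 to 40.5), and that of the regions with a repeat, 16.8, to 79 (62.5 to 98.5). The lowest score among the Vmn2r regions was 4.67. In the upper 50% of the list by score, 1 of the 47 no-repeat regions was left.

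Within the largest neighbourhood, no-repeat regions came back at matching distances from different TSSs. Of the 47, 15 (31.9%) had another no-repeat region within 250 bp of the same signed distance at another TSS. They formed 4 positions when successive distances at most 250 bp apart were joined, so a position can span more than 250 bp. Of the 38 regions there with a repeat named, 8 (21.1%) recurred in the same sense among themselves. The sets differ in size, and the difference between these shares was not tested. The position with the most copies lay in intron 1, from +1783 to +2269 bp of 7 TSSs: those of Vmn2r34, Vmn2r35, Vmn2r37, Vmn2r39, Vmn2r45, Vmn2r46 and Vmn2r48.

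Vmn2r34 had its intron 1 region at +2145 bp (chr7:7686937-7687569), with a score of 8.28 over 632 bp. Vmn2r45, whose printed 100 bases are identical, had it at +2110 bp with a score of 5.95. The regions of Vmn2r35 at +1872 bp (score 5.95) and Vmn2r39 at +2040 bp (score 5.10) lay somewhat nearer to the start. All 4 genes therefore had a short, low-scoring region in the same stretch of intron 1.

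Vmn2r37 had its intron 1 region at +2269 bp (score 7.65) and Vmn2r48 at +2171 bp (score 5.31). Their annotated starts are shifted against that of Vmn2r34 by 115 and 22 bases, as placed by the longest exact match between the promoter sequences (167 and 52 bases). Less that shift, both regions lie at +2154 and +2149 bp, within 9 bp of the Vmn2r34 value. The same placement gave a shift of 0 for Vmn2r35 and Vmn2r39 (matches of 65 and 40 bases). Their regions therefore stay at +1872 and +2040 bp, farther from the Vmn2r34 value. Vmn2r46 had its region at +1783 bp (score 9.34, chr7:9499269-9500165) from the start where RefSeq has no gene, and it has no promoter entry to align.

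A second position lay at +20646 to +20803 bp of 4 TSSs, 1 of Vmn2r45 and 3 of Vmn2r47. In the 3 Vmn2r47 copies it fell in the last intron, with scores of 18.7, 8.49 and 6.80, and the Vmn2r45 region was intergenic with a score of 5.31. The region at the Gm4073 start, chr7:8013839-8015155, was the longest of the 47 with 1316 bp. Another position was +12471 and +12519 bp at 2 Vmn2r47 starts, and the last lay upstream, at -52325 bp for Vmn2r36 and -52172 bp for Vmn2r47. Retroelements recurred too: IAPEz-int regions stood at +20461 bp of Vmn2r35 (score 29.1) and +20469 bp of 1 Vmn2r46 start (score 11.7).

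**Figure D3:**
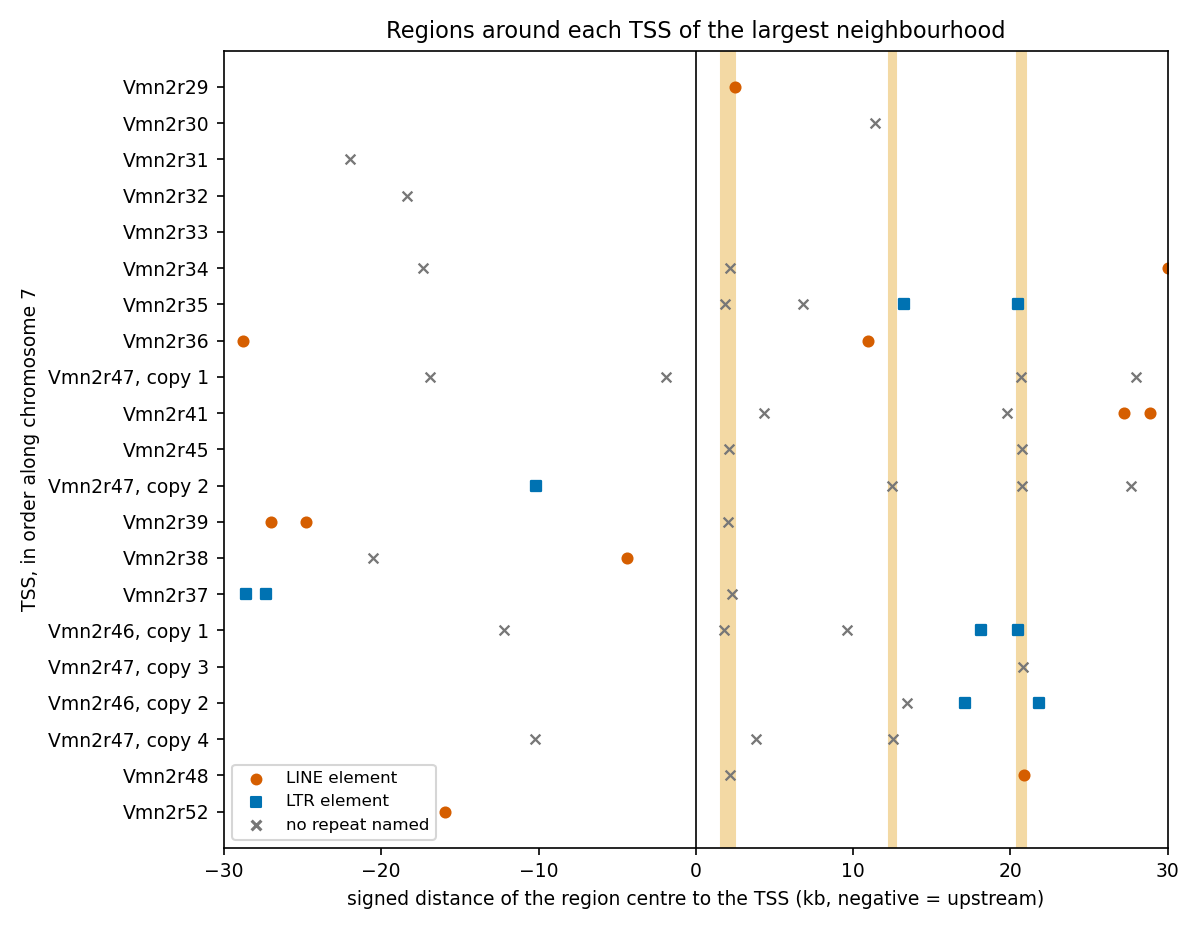
Each row is 1 of the 21 TSSs of the largest neighbourhood in order along the chromosome (copies of Vmn2r46 and Vmn2r47 are numbered in that order), and each symbol is a region at its signed distance from that TSS in kb; the 50 regions within 30 kb are drawn and 35 lie outside. Shaded bands mark 3 of the 4 recurring no-repeat positions, and the first band downstream of the TSS holds 7 crosses.

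An old L1 element showed the same kind of repetition. L1MEg was the repeat at the centre of 5 regions in the whole list, and all 5 were in the largest neighbourhood, at scores of 4.67 to 8.07 and 9.34 to 11.9 per kb. In 3 of them another L1 region followed at a spacing of 2698 to 2836 bp: L1Md_Gf near Vmn2r36 (score 14.7) and near Vmn2r46 (score 20.8), and L1_Mur2 near Vmn2r47 (score 18.9). The L1MEg regions near Vmn2r46 stood at +39873 and +39819 bp of its 2 starts.

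Few regions lay close to a TSS. None of the 255 was within 1 kb and 15 (5.88%, 3.60% to 9.48%) were within 5 kb, at 14 named genes. Among the 124 coding Vmn2r genes, 14 (11.3%, 6.85% to 18.1%) had a region within 5 kb of a TSS listed under their name, against 1.82% of all coding genes counted the same way. For Vmn2r46 that TSS is the one where RefSeq has no gene, and 13 genes had such a region at their RefSeq start. Of the 15 regions, 12 were in the largest neighbourhood, 10 had no repeat and 11 were downstream of the TSS. Elsewhere the share within 5 kb was 3 of 170 (1.76%, 0.602% to 5.06%), beside 2.12% for the other autosomal regions, 13.6% for Vmn1r and 12.1% for Olfr.

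The 3 regions within 5 kb outside the largest neighbourhood were unlike one another. Vmn2r102 had an RLTR22_Mus element 1611 bp upstream of its TSS (chr17:19658538-19659038), the closest of all 255, with a score of 26.1 over 500 bp. Its 52.2 per kb was the highest of the 255. Vmn2r113 had a (GAA)n repeat at -2272 bp with a score of 5.31. Vmn2r55 had an L1Md_T region at +4100 bp in intron 1 with a score of 17.4.

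Inside the largest neighbourhood, 2 of the regions within 5 kb had an L1 at the centre. Vmn2r29 had L1Md_F2 at +2476 bp in intron 1 (score 18.9) and Vmn2r38 had L1Md_F3 at -4372 bp (score 7.43). The other 10 had no repeat. Besides the 7 in intron 1, these were in intron 2 of Vmn2r41 at +4357 bp (score 5.52), in intron 2 of Vmn2r47 at +3809 bp (score 5.73) and upstream of the Gm4073 start at -1922 bp (score 5.52).

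Most regions lay far from a TSS. The median distance was 32911 bp for Vmn2r and 112297 bp for the other autosomal regions, with 16034.5 bp for Vmn1r and 12110 bp for Olfr. The centre was upstream of the TSS in 112 Vmn2r regions (43.9%, 38.0% to 50.1%), against 53.3% (46.6% to 59.8%) for Vmn1r and 58.1% (53.4% to 62.6%) for Olfr. For the other autosomal regions the share was 49.7%, inside the Vmn2r interval. Intergenic Vmn2r regions were upstream in 53.2% (46.3% to 59.9%) and intronic ones in 6.0% (2.06% to 16.2%). Only 26 regions were over 100 kb from their TSS, and 11 of these were Vmn2r121 regions.

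Introns held 50 of the 255 regions, under 30 nearest-gene names, and intergenic sequence held the other 205. The host was the nearest transcript itself in 46 of the 50. The other 4 were named for Vmn2r6, Vmn2r7 or Vmn2r86 and lay in introns of the Vmn2r-ps11 or Vmn2r87 transcript. Intron 1 held 16 and the last intron 14. By repeat, 23 of the 50 had a young L1 at the centre, 19 none, 6 an LTR element and 2 a simple repeat. Intronic regions had a median of 21.9 per kb (13.7 to 27.0) and intergenic ones 25.4 (23.8 to 27.1), so the intervals overlapped.

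By nearest-gene name, Vmn2r47 had 6 intronic regions over its copies, Vmn2r35 had 4, and Vmn2r27, Vmn2r46 and Vmn2r-ps11 had 3 each. Introns of the Vmn2r-ps11 transcript also held regions named for Vmn2r6 and Vmn2r7, which its count leaves out. Vmn2r27 on chromosome 6 differed from the chromosome 7 array: its 3 regions in intron 3 all had a young L1 at the centre, with scores of 16.6, 37.4 and 69.9. Vmn2r58 had 2 L1Md_A regions in its last intron, of which the longer, 3590 bp, had a score of 119.6. Vmn2r118 had 1 region in its last intron, an L1Md_F2 of score 21.7, and 6 intergenic L1Md_T regions farther downstream.

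In the other 16 neighbourhoods most regions had a young L1 at the centre, except around Vmn2r87 (2 of 7) and Vmn2r18 (2 of 5). Around Vmn2r69 on chromosome 7, 18 of 26 regions had a young L1 and 7 an LTR element, with a median of 30.9 per kb and 1 region in an intron. Around Vmn2r97 on chromosome 17, 16 of 26 had a young L1 and 8 an LTR element, with a median of 25.2 per kb. Vmn2r97 itself had 6 regions, all upstream of its start. Each of these neighbourhoods held 10 names.

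Around Vmn2r-ps11 on chromosome 3, 14 of 16 regions had a young L1 and 7 were intronic, the highest intronic count outside the largest neighbourhood. Around Vmn2r27 on chromosome 6, 9 of 14 had a young L1, 4 an LTR element and 5 were intronic, and the median of 32.3 per kb was the highest of any neighbourhood with at least 5 regions. Around Vmn2r58 on chromosome 7, 12 of 14 had a young L1, and 13 were downstream of the TSS. Around Vmn2r112 on chromosome 17, 12 of 18 had a young L1 and 2 a simple repeat.

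Around Vmn2r10 on chromosome 5 all 9 regions had a LINE element, 6 of them a young L1. All 7 regions of Vmn2r118 had a young L1, as did 4 of the 5 of Vmn2r120. Those 5 lay at -107247 to -69505 bp of its start. Vmn2r82 on chromosome 10 and Vmn2r-ps159 on chromosome 4 had 3 regions each, all L1Md_A. The 2 regions of Vmn2r55 were in its intron 1, and the single Vmn2r89 region was L1Md_T at +37298 bp.

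Regions longer than 3 kb were all at LINE elements, and the longest LTR region had 2895 bp. The median Vmn2r region was 626 bp long, 48.6% were exactly 500 bp, the shortest length among them, and 11 were longer than 3 kb. The highest score, 174.6, belonged to an L1Md_A region of 5343 bp in intron 1 of the pseudogene Vmn2r-ps11 (chr3:64815158-64820501). A second L1Md_A region named for Vmn2r-ps11, 5322 bp long and at -113336 bp, had 170.1. Vmn2r12 followed with 167.6 over an L1Md_T region of 6516 bp on chromosome 5, the longest of the 255. These 3 had 32.7, 32.0 and 25.7 per kb, beside a median of 28.1 over all young L1 regions. Vmn2r58 with 119.6 and Vmn2r79 with 109.4, both at L1Md_A on chromosome 7, came next.

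The regions with the most score per kb after that of Vmn2r102 had young L1 elements at the centre. An L1Md_T region 37046 bp downstream of the Vmn2r37 start had 48.0 per kb, 1 of L1Md_T in Vmn2r-ps11 had 41.6, 1 of L1Md_A near Vmn2r-ps159 had 41.2 and 1 of L1Md_T near Vmn2r27 had 38.9. The first 4 of these 5 regions were 500 bp long, the shortest length, and the last was 807 bp. For Vmn2r37 the same gene thus held a region near the top of the range and, in its intron 1, 1 of 15.3 per kb.

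Regions of 1 repeat name often lay side by side. Regions of the same named repeat under 3 kb apart formed 34 runs of 2 or 3, which held 75 regions, so the 255 regions came to 214 runs. Whether the regions of a run lie in 1 element was not examined. Vmn2r118 had 7 regions in 3 runs, Vmn2r58 had 7 in 4 and Vmn2r-ps159 had 3 in 1 run of L1Md_A. In the largest neighbourhood 85 regions made 82 runs, so its count was hardly changed.

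LTR elements were at 52 regions, and 24 of these were IAP. They had a median of 25.0 per kb, and IAP alone 29.1. The 5 regions of Vmn2r87 on chromosome 10 all had LTR elements, as did those of 6 other names with 1 to 3 regions each. They were 4 MMETn-int regions with scores from 7.22 to 12.5, and an IAPEz-int region of 40.1. Vmn2r18 on chromosome 5 had 3 IAPEz-int regions with scores of 12.5, 21.7 and 77.3 between an L1Md_T and an L1Md_A region. The 5 simple-repeat regions were all low, from 10.62 to 14.02 per kb.

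Vmn2r121 was the only Vmn2r name on X, and its regions reached farther from their TSS than those of any other name. Its 14 regions ran from -1233720 bp to +321332 bp of its TSS. All were intergenic, 9 had a young L1 and 5 an LTR element at the centre, and their median was 20.2 per kb. The lowest score was 5.31 and the highest 95.6, at an L1Md_A region at -418347 bp. A nearest-gene name at such distances says only that no other annotated TSS was closer.

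Density was also read without the nearest-gene rule, from the spans of annotated Vmn2r genes. The 12 spans with at least 2 coding Vmn2r genes covered 14.8 Mb and held 246 region centres, of which 206 had a Vmn2r gene as nearest gene. That gave 16.6 regions per Mb (95% Poisson interval 14.6 to 18.8), against 8.11 ± 1.15 per Mb (SD, n = 19 autosomes). The spans of Vmn1r genes held 19.9 per Mb (17.6 to 22.5) and those of Olfr genes 13.2 (12.0 to 14.4). Counting only regions with a repeat named, the Vmn2r spans held 13.1 per Mb.

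The spans differed among themselves. That of the largest neighbourhood held 29.1 per Mb (23.4 to 35.9), of which 12.9 had a repeat named. The span from Vmn2r111 to Vmn2r117 on chromosome 17 held 23.6 (14.8 to 35.8), and the longer one from Vmn2r90 to Vmn2r110 on the same chromosome 8.99 (5.87 to 13.2), near the autosomal mean. The span on chromosome 14 held 0 in its 0.0840 Mb, which allows up to 43.9 per Mb. A no-repeat centre also lay in 1 span each on chromosomes 10 and 17, at regions named for other genes.

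**Figure D4:**
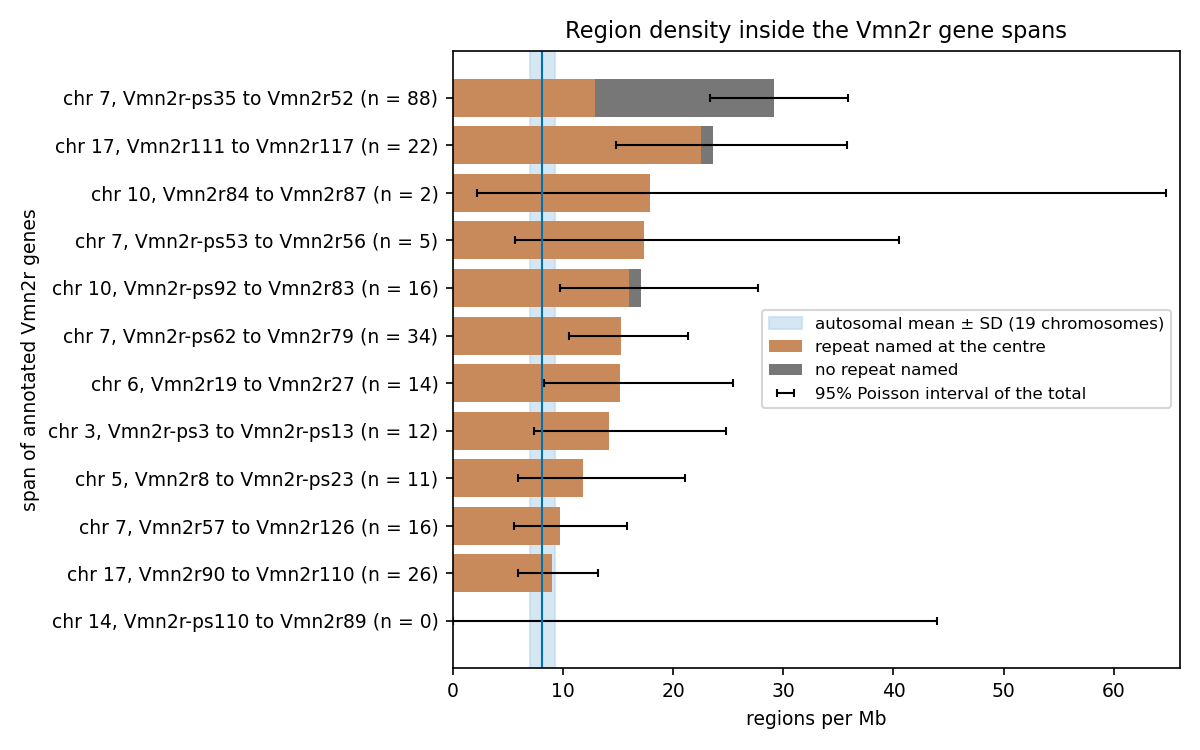
Bars from 0 give region centres per Mb (horizontal axis) in each of the 12 Vmn2r gene spans, named by chromosome and first and last gene, with regions with and without a repeat in different colours, the 95% Poisson interval of the total as a whisker, and the mean ± SD of the 19 autosomes as a band. The top span reaches 29.1 per Mb, of which 12.9 have a repeat named.

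Gene bodies were also read without the nearest-gene rule. Among annotated Vmn2r genes placed on chromosomes other than Y, 28 of 123 coding genes (22.8%, 95% Wilson interval 16.2% to 30.9%; median length 24544 bp) and 17 of 128 pseudogenes (13.3%, 8.46% to 20.2%; median length 3220 bp) held a region centre in the gene body. Over all genes placed in the same way, the shares were 9.88% of 21779 coding genes (median length 17217 bp) and 2.14% of 10409 pseudogenes outside Y (median length 918 bp), so both the shares and the lengths were higher for Vmn2r. On chromosome Y, RefSeq lists 20 Vmn2r pseudogenes. A region centre lay inside 4 of them, and 16 had a centre within 10 kb. Of all 101 pseudogenes on Y, 20.8% held a centre and 61.4% had one within 10 kb, on a chromosome with 174 regions per Mb. No Y region was named for a Vmn2r gene.

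Some genes with a part in the vomeronasal system had regions nearby. A list of 25 genes covered the signal path of the vomeronasal neurons, the H2-M molecules and the formyl peptide receptors, some of which are also vomeronasal chemoreceptors. RefSeq held 24 of them under these names, and 10 were the nearest gene of 19 regions, beside the 23.0% of all coding genes given above. No region was nearest to Trpc2, the ion channel of the vomeronasal response, to Gnao1 and Gnai2, its G protein alpha subunits, to Gng8 or Gng13, or to B2m, the light chain of class I molecules. Omp, a marker of mature sensory neurons, had 1 region at +11642 bp (score 19.1), Ano1 had 1 and Ano2 had 2.

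Among the H2-M genes, H2-M1 and H2-M10.4 had 4 regions each, H2-M11 had 3, and H2-M9, H2-M10.1 and H2-M10.5 had 1 each. Fpr-rs3 had 1 region, at -4165 bp with a score of 26.1, the closest to a TSS of the 19. None of the 19 regions lacked a repeat at the centre, beside a no-repeat share of 2.79% among the autosomal regions not near a Vmn2r gene.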

How the data were processed

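Testis ChIP-seq of 3 SPOC1 and 3 input libraries was analysed from the 1 region list that the authors deposited. Bowtie2 2.2.2, SAMtools, HOMER 4.6 and build mm10 are named, without roles, per the submitters' processing notes. No source used here gives the pooling, the control or the peak settings. The score is the authors' own value per region, deposited with no unit per the file headers. It was used only within the list. Library depth is unknown, so precision comes from region counts alone.

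From the list, signed distances, repeats at region centres, introns, lengths and score per kb were summarised with 95% Wilson, Poisson or order-statistic intervals. Neighbourhoods joined regions under 1 Mb apart, and runs joined the same repeat under 3 kb apart. RefSeq tables (GRCm38.p6, which mm10 corresponds to) gave gene spans (genes starting below 3 Mb left out as scaffold coordinates) and promoters. All 76 names matched by gene number, 75 with the same symbol; Vmn2r-ps159 is Vmn2r129 there. Of the Vmn2r promoter entries, 118 windows were found. The region sequences themselves were not analysed here.

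The members and lists were chosen with earlier results of these data known. Genes named were the 10 with most regions, those with a region within 5 kb of a TSS, those of the 5 highest scores and 5 highest scores per kb, up to 10 with intronic regions, the leading gene of each neighbourhood, and the signalling genes. Vmn2r52 and the genes at recurring copies (Gm4073, Gm10302, Vmn2r-ps44) and at the ends of spans were named after their values were seen. Alternatives were subsets by score and distance, names without pseudogenes, membership by gene span, other joining distances and windows, and the removal of the largest neighbourhood or of repeats within runs. The grouping and interval steps were tested on simulated data. Scripts ran in Python 3.11.15 with NumPy 2.4.6, pandas 2.3.3, matplotlib 3.10.9 and SciPy 1.17.1.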

Additional observations from a re-analysis of the deposited data

How the results depend on the processing

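Of 82 alternative values of 11 results, 56 stayed within the counting interval of the reported value (for counts, within 1.5 times) and 26 moved. Without pseudogene names, within 100 kb of the TSS, with members taken by gene span, and with neighbourhoods joined under 0.5 or 2 Mb, every value of these 11 results that was computed stayed.

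In the upper 50% of the list by score, 96 Vmn2r regions of 50 names were left, with a LINE share of 78.1%, a young L1 share of 75.0%, 2.08% within 5 kb of a TSS, a median length of 917.5 bp, 31.2 per kb and 6.53 regions per Mb of gene span. In the upper 10%, 16 regions of 14 names were left, with LINE and young L1 shares of 81.2%, 0% within 5 kb, 37.5% upstream, a median length of 3270 bp, 30.8 per kb and 1.08 per Mb. Fewer regions enter both subsets by construction. The neighbourhood with most regions was found anew in each subset. In both it was the one around Vmn2r69, and not the largest neighbourhood of the full set. It held 18.8% of the upper 50% and 31.25% of the upper 10%. The latter share counted as unmoved although the neighbourhood differs. A window of 1 kb gave 0% near a TSS and one of 10 kb gave 10.59%. Regions longer than 500 bp had a median of 27.3 per kb.

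The removal of the largest neighbourhood was chosen after seeing the data. It gave a LINE share of 72.9%, a young L1 share of 70.6%, 1.76% within 5 kb, 27.1 per kb and 13.4 regions per Mb. Counting 1 region per run, also chosen after seeing the data, moved none of the 10 results it was applied to. Counted only at the TSS of the reference gene, Vmn2r47 and Vmn2r46 had 4 regions each in place of 24 and 14, while the other 8 of the 10 most frequent names were unchanged. Within 100 kb of the TSS, Vmn2r121 fell from 14 regions to 3 and Vmn2r-ps11 from 7 to 4.

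No paired analysis was possible because values for single libraries were absent from the region list used. The fit with a replicate block and the omission of each replicate in turn were therefore not run, and no value here carries the spread between animals or the depth of a library.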

Other observations

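Vmn2r pseudogenes on chromosome 13 lay outside the rule, as none was the nearest gene of a region. The stretch that holds 13 of them, chr13:65353200-66873000, had 30 region centres, or 19.7 per Mb (95% Poisson interval 13.3 to 28.2), of which 11 had no repeat named and 8 a young L1.

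The Vmn1r array at chr7:20101158-24055691 had no-repeat regions too, 37 of its 137 region centres. It held 34.6 regions per Mb (29.1 to 41.0), and 25.3 per Mb with a repeat named. Both chromosome 7 arrays thus combined a high density with regions lacking a repeat at the centre.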
